A study of Mus musculus with 4 samples.

Results

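Unstimulated CD4 T cells labelled Med23 knockout were compared with unstimulated wildtype CD4 T cells. The comparison uses 2 of the 4 arrays in the series, chosen by their labels: 1 array of each genotype without stimulation. The other 2 arrays hold cells of the same genotypes stimulated for 6 h, and share no array with the first pair. All 4 samples were total RNA from freshly isolated CD4 T cells of lymph nodes from male mice aged 7 weeks. The genotype is given as wildtype or Med23 knockout. The labels name no Cre line, promoter or deleted exon, and they give neither the number of mice behind a sample nor the method used to purify the T cells. Each sample had 1 array, so no value has a replicate or a test, and differences are reported by size.

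Med23 is a subunit of Mediator, the multiprotein complex that carries signals from DNA-bound transcription factors to RNA polymerase II. Resting lymph node CD4 T cells are mostly naive cells, which recirculate, express homing receptors and keep effector genes silent. A smaller share are antigen-experienced effector, memory and regulatory cells, which carry poised cytokine, chemokine and chemokine receptor genes.

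Levels are log2 signals relative to the 75th percentile of the same array, and a difference is the level in the array labelled knockout minus that in wildtype, also in log2. A gene was called higher or lower at a 2-fold difference, and a gene at the floor of -5.01, the lower limit set for all arrays, gives only a bound. The 75th percentile was a signal of 269.1 in wildtype and 332.6 in the array labelled knockout, and 59.8% and 59.5% of probes lay above the floor. In the stimulated arrays it was 680.8 in wildtype and 243.7 in the array labelled knockout. Scaling therefore weighs more on the stimulated differences. T cell identity genes were close in the 2 arrays: of 27 measured members 0 were higher and 0 lower, with a median difference of 0.05. The T cell receptor chain Cd3e stood at 7.86 in wildtype and 7.90 in the array labelled knockout, and the co-receptor Cd4 at 2.62 and 2.36.

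The targeted gene did not separate the pair. The single Med23 probe read -1.59 in wildtype and -1.66 in the array labelled knockout, a difference of -0.07. In the stimulated arrays the same probe read -0.75 in wildtype and -2.29 in the array labelled knockout. The position of the probe with respect to the deletion is unknown here and it may therefore be no check, so the arrays are called "labelled knockout" throughout. Of 31 measured Mediator genes 0 were higher and 0 lower (median 0.02), with Med13l, a subunit of the kinase module, at -0.51 and Med17, a core subunit, at 0.42 as the most different. Of the 20 genes nearest to Med23 in the RefSeq order, 18 were on the array and 8 were measured. Of those 8, 1 was higher and 0 lower (median -0.07): Enpp1, an ectonucleotide pyrophosphatase, at least 1.09 higher with the wildtype array at the floor.

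Over all genes the 2 arrays were similar. Of 14008 measured genes 95.3% lay within 2-fold, 463 were higher in the array labelled knockout (3.31%) and 199 were lower (1.42%). Of all 662 differing genes 69.9% were on the higher side. The median difference was -0.02 and the interquartile range 0.367. The share of differing genes depended on brightness. At levels of 1 and above, 33 of 4291 genes were higher (0.769%) and 11 lower (0.256%), whereas between the floor and -3 5.86% of 3924 genes were higher and 3.26% lower. Probes printed 10 times on the array gave differences with an SD between spots of 0.0953 at levels of 1 and above, 0.189 between -3 and 1, and 0.535 below -3. These SDs cover spot noise only, and not the spread between mice.

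**Figure D1:**
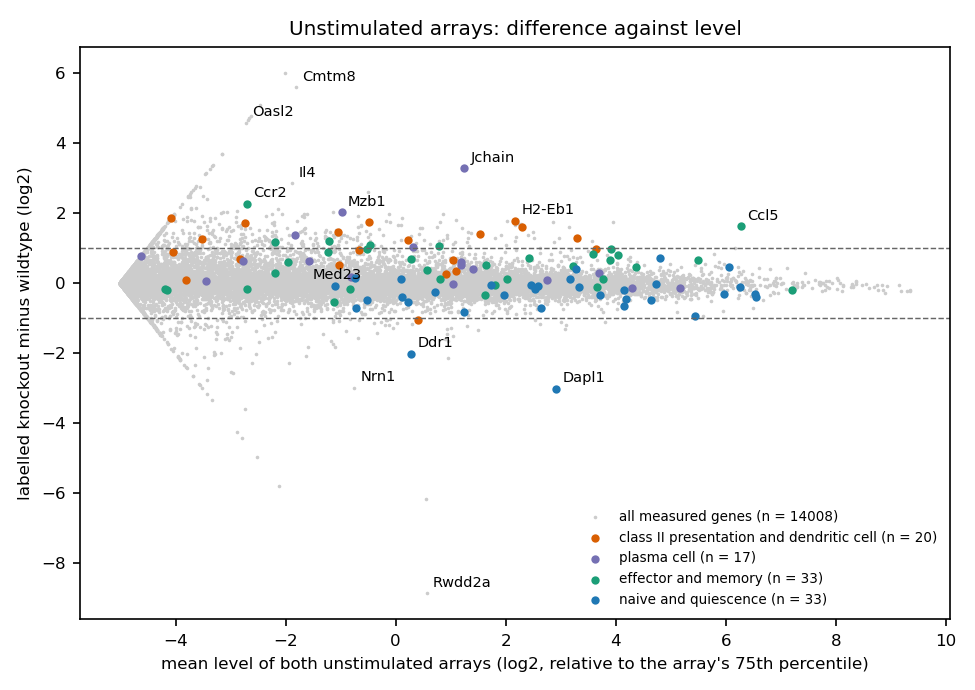
Difference between the unstimulated arrays (log2, labelled knockout minus wildtype) against the mean level of both arrays, 1 point per gene, with 4 gene lists in colour and dashed lines at 2-fold. Points spread widely near the floor and narrowly among bright genes, where Jchain (3.28), Ccl5 (1.62) and H2-Eb1 (1.79) lie above and Dapl1 (-3.01) below.

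Most genes of the type 2 helper list and of the effector and memory list were on the higher side in the array labelled knockout. Of 16 measured type 2 helper genes 4 were higher and 0 lower (25% against 3.31% of all genes), and 14 of the 16 had a positive difference, with a median of 0.79. In the stimulated pair 8 of 22 were higher and 1 lower (median 0.45), beside 4.79% and 7.13% of all genes measured in both pairs. The unstimulated median of this list was 0.18 to 0.43 under some other processing choices. The gene lists, and Il4 as a given marker, were chosen with earlier results of these data known. Shares of list members therefore describe the pair and are no test. In the type 2 helper list Ptgdr2 and Csf2 counted as measured through the array labelled knockout alone. Il4, the cytokine that directs type 2 help and antibody class switching, led the list. Its level was -3.30 in wildtype and -0.45 in the array labelled knockout, from raw signals of 27.7 and 244.8, a 7.20-fold difference (2.85). In the stimulated arrays Il4 stood at 0.01 in wildtype and 2.19 in the array labelled knockout (2.18), so it was higher in the latter in both pairs.

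The other type 2 helper genes past 2-fold were dimmer or smaller. Maf, a transcription factor that drives Il4 transcription, stood at -1.02 and 0.08 (1.10), and at -1.02 and -0.74 in the stimulated pair. Il24, a cytokine of the interleukin-10 family, was near the floor at -4.90 and -3.46 (1.44). Ptgdr2, the prostaglandin D2 receptor of type 2 cells, was at the floor in wildtype and at -3.59 in the array labelled knockout, at least 1.42 higher. Il24 and Ptgdr2 each kept 2-fold in 5 of 7 other processing choices. Gata3, the lineage-defining factor, was bright in both arrays, at 3.22 and 3.51 (0.29). The cytokine genes Il5, Il13, Il3 and Il9 were at the floor in both arrays, and Il10 stood at -3.09 and -3.31 (-0.22).

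Effector and memory genes showed the same side. Of 33 measured members 6 were higher and 0 lower (18.2%), and 24 had a positive difference (median 0.51). The stimulated pair did not repeat this, with 5 of 33 higher and 5 lower (median 0.18), beside 4.79% and 7.13% of all genes. Ccl5, a chemokine stored by memory T cells, stood at 5.47 in wildtype and 7.09 in the array labelled knockout, 3.07-fold higher (1.62). In the stimulated pair Ccl5 differed by 2.23, with the array labelled knockout at 5.23 and again the higher one. Ccr2, the receptor for monocyte-attracting chemokines on effector and memory T cells and monocytes, stood at -3.84 and -1.57, from raw signals of 18.8 and 112.0, a 4.82-fold difference (2.27) that was 0.81 once the floor was raised to the 60th percentile. Ccr2 went the other way in the stimulated pair, at -3.47 in wildtype and at the floor in the array labelled knockout.

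The remaining members past 2-fold were Maf, Anxa1 (1.16), a phospholipid-binding protein that modulates inflammation, Plac8 (1.19), and Ctla2a (1.07), a cysteine protease inhibitor. The 2 probes of Plac8 gave 0.45 and 1.94. Anxa1 kept 2-fold in 6 of 8 other processing choices, and Plac8 (0.97 at the lowest) and Ctla2a (0.98) in 7 of 8. Several members lay just under the threshold: S100a6 (0.96), Anxa2 (0.83) and S100a4 (0.82), calcium- and membrane-binding proteins of activated T cells, and Bhlhe40 (0.97), a transcription factor of cytokine-producing T cells. Cd44, the classical memory marker, differed by 0.60, and Itgb1, an integrin of memory cells, by -0.53. In the same array 10 of 20 class II and dendritic cell genes, 3 of 17 B cell genes and 5 of 21 monocyte and macrophage genes were also higher, and their part in the type 2 helper and effector differences was not tested.

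Genes of naive and quiescent T cells were on the lower side. Of 33 measured members 2 were lower (6.06% against 1.42% of all genes) and 0 higher, and 27 had a negative difference (median -0.30). In the stimulated pair 6 of 33 were lower and 0 higher (median -0.47), beside 7.13% of all genes lower there. Dapl1, a transcript of resting naive T cells, stood at 4.42 in wildtype and 1.41 in the array labelled knockout, from raw signals of 5764 and 884.0, an 8.06-fold difference (-3.01). It was also lower in the stimulated array labelled knockout, at -2.80 against 1.14 in wildtype (-3.94). Ddr1, a collagen receptor tyrosine kinase, stood at 1.29 and -0.72 (-2.02).

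Homing and retention genes on the lower side stayed inside 2-fold. S1pr1, the receptor that lets T cells leave lymph nodes, stood at 4.49 and 3.82 (-0.67). Lef1 (-0.71) and Bach2 (-0.72), transcription factors of naive cells, lay at similar differences, while Tcf7 differed by -0.02, Klf2 by -0.40, Ccr7 by -0.30 and Il7r by -0.48. Ly6c1 (0.72), Nsg2 (0.45) and Il6ra (0.41) lay on the other side. Of 24 chemokine receptor, homing and retention genes 2 were higher and 0 lower (median -0.03): Ccr2 and Ccr10, the skin-homing receptor, which stood at -1.46 and 0.21 (1.67).

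**Figure D2:**
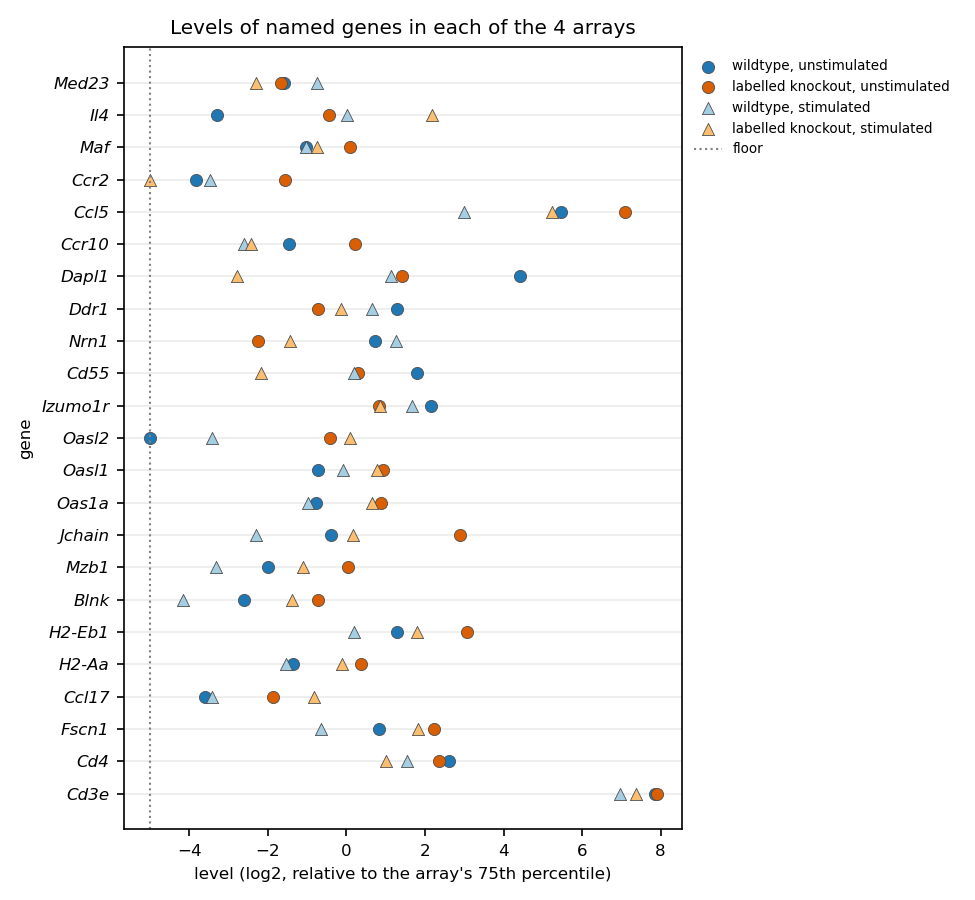
Level (log2, relative to the array's 75th percentile) of 23 genes in each of the 4 arrays, with circles for unstimulated and triangles for stimulated cells, blue for wildtype and orange for the arrays labelled knockout. Il4, Ccl5, Jchain and H2-Eb1 lie higher in the array labelled knockout in both pairs, Dapl1, Nrn1 and Cd55 lie lower in both, and Med23 is 2-fold different in the stimulated pair alone.

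Other helper programmes had few members past 2-fold, although most members of each list had a positive difference. These were 14 of 21 type 1 helper, 18 of 21 type 17 and follicular helper, and 16 of 23 regulatory T cell genes. In the same order 4.76%, 4.76% and 4.35% were higher (3.31% of all genes), and 0%, 4.76% and 8.70% lower (1.42% of all genes). Of 21 type 1 helper genes 1 was higher, Ccl5, and 0 lower (median 0.21), with interferon gamma (Ifng) at -0.17 and its regulator Tbx21 at 0.14. Of 21 type 17 and follicular helper genes 1 was higher, the interleukin-1 receptor Il1r1 (1.07, and 0.88 to 1.07 over other processing choices), and 1 lower, the folate receptor family gene Izumo1r (-1.33), with a median of 0.42. Bcl6, the follicular helper regulator, differed by 0.86, and Il17a by 0.02. Izumo1r stood at 2.16 in wildtype and 0.83 in the array labelled knockout. Of 23 regulatory T cell genes 1 was higher, Ebi3 (1.30), a subunit of interleukin-27 and interleukin-35, and 2 were lower (median 0.14). The 2 lower genes were Gpr83, at the floor in the array labelled knockout and so at least 2.77-fold lower, and the granule protease Gzmb (-1.41). Foxp3, the defining factor of regulatory T cells, stood at 2.60 and 2.63.

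Genes that respond to T cell receptor signals were near their wildtype levels in the resting cells. Of 33 early response genes 1 was higher, the stress-response gene Gadd45b (1.13), and 1 lower, the immediate-early factor Egr1, which stood at 3.22 and 2.04 (-1.18), with a median of 0.04. Dusp2, a phosphatase of MAP kinases induced by stimulation, stood at 6.07 and 5.12 (-0.95). Among 40 negative regulators and anergy genes 0 were higher and 1 lower, Izumo1r (median 0.03). Of 33 serum response factor targets 0 were higher and 1 lower, Egr1 (median -0.08). Of 12 measured Kruppel-like factors 0 were higher and 0 lower (median 0.12).

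Interferon-stimulated genes held the largest bound among the lists but did not move as a group. Of 54 measured members 3 were higher (5.56%) and 1 lower (1.85%), with a median of 0.05. All 3 higher genes belong to the family of 2'-5'-oligoadenylate synthetases, enzymes that sense double-stranded RNA, and their relatives. Oasl2 was at the floor in wildtype and at -0.43 in the array labelled knockout, from raw signals of 4.19 and 247.6, at least 24.0-fold higher. Raising the floor to the 60th percentile gave a bound of 1.96 in log2. In the stimulated arrays Oasl2 stood at -3.43 and 0.08 (3.51), so it was higher in the array labelled knockout in both pairs. Oasl1 stood at -0.72 and 0.93 (1.65), with 0.87 in the stimulated pair. The 2 probes of Oas1a differed by 1.60 and 1.71, and the gene stood at -0.78 and 0.87, with 1.62 in the stimulated pair.

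Family members Oas2 (0.33) and Oas3 (0.19) lay inside 2-fold, as did the broadly induced genes Isg15 (0.33), Ifit1 (-0.06), Irf7 (0.33) and Rsad2 (0.00). Xaf1 was the 1 lower gene at -1.46, but its 2 probes disagreed, at -4.26 and 1.34.

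The sequences before the transcription starts of 3 higher synthetase genes and of 2 comparators that did not differ are shown because the genes share an interferon label but not a difference. They are RefSeq promoter stretches of build GRCm38.p6, each 140 bases on the strand of the gene, with matches to the core of the interferon-stimulated response element in capitals. The core searched was GAAA, any 2 bases, GAAA, on either strand, in the 250 bases before the start, and matches may overlap. The stretches are chr5:114896794-114896933 (+) for Oasl2, chr5:114923100-114923239 (+) for Oasl1, chr5:120907526-120907665 (-) for Oas1a, chr5:120777660-120777799 (-) for Oas3 and chr19:34640749-34640888 (+) for Ifit1.
Oasl2: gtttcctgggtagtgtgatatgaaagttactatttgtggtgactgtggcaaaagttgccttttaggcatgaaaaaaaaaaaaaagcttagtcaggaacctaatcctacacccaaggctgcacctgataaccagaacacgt
Oasl1: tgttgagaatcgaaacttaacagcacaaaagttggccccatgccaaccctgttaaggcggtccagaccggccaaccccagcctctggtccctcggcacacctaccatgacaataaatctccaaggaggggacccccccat
Oas1a: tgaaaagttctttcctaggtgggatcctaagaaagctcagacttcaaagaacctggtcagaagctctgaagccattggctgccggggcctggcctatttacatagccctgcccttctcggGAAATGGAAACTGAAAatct
Oas3: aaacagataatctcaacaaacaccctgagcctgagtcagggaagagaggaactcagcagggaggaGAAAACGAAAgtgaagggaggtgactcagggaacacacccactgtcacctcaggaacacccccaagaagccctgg
Ifit1: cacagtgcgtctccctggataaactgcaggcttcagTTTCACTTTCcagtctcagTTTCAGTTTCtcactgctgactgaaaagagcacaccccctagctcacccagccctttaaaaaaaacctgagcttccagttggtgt
Oas1a held 2 overlapping matches at 20 and 14 bases before the start, Ifit1 held 2 at 104 and 85 bases and Oas3 held 1 at 75 bases, whereas Oasl2 and Oasl1 held 0 in the window. The core was present in 936 of 27025 genes with a promoter window (3.46%), in 21 of 42 listed interferon-stimulated genes and in 1 of the 4 that differed 2-fold. A match is a description of letters and not a binding site.

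Transcripts of antigen-presenting cells had the highest median of the 33 lists. Of 20 measured class II presentation and dendritic cell genes 10 were higher (50.0% against 3.31% of all genes) and 1 lower, and 19 had a positive difference, with a median of 1.11, or 0.66 with 16 signal units added before the log. The class II chains H2-Eb1, H2-Aa and H2-Ab1, which display peptides to CD4 T cells, stood at 1.28 and 3.07 (1.79), -1.36 and 0.38 (1.74), and 1.49 and 3.09 (1.59). The invariant chain Cd74 stood at 2.66 and 3.94 (1.28), and the peptide loader subunit H2-DMb1 at -1.78 and -0.31 (1.47). All 5 were also higher in the stimulated array labelled knockout, although H2-DMb1 by only 0.23. H2-Ob, a chain of a class II loading inhibitor of B cells, was the 1 lower member (-1.05).

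Dendritic cell genes in the list were on the same side as the class II chains. The chemokine Ccl17 stood at -3.59 and -1.87 (1.71), the actin-bundling protein Fscn1 at 0.83 and 2.23 (1.40), the transcription factor Batf3 at -0.39 and 0.85 (1.24) and the integrin Itgax at -4.15 and -2.89 (1.26). The lectin Clec10a was at the floor in wildtype and at least 1.85 higher. Itgax kept 2-fold in 5 of 7 other processing choices, Clec10a in 6 of 7, and Ccl17 in 7 of 8. After stimulation 8 of 19 members of the list were higher and 3 lower (median 0.51), beside 4.79% and 7.13% of all genes. Ciita, the class II transactivator, and Xcr1, Clec9a and Ccl22 were at the floor in both arrays. Clec10a counted as measured through the array labelled knockout alone. The log2 of the summed level of the list was 5.01 in wildtype and 6.10 in the array labelled knockout. In bulk RNA more cells of a type and more RNA per cell cannot be told apart, and the same holds for every list of another cell type.

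H2-Aa and H2-Eb1 are shown as the class II genes with the largest differences, again as RefSeq stretches of build GRCm38.p6 on the gene's strand, at chr17:34287824-34287963 (-) and chr17:34305727-34305866 (+). Capitals mark ATTGG, the inverted CCAAT box that is the core of the Y box of class II promoters, or CCAAT, the other orientation.
H2-Aa: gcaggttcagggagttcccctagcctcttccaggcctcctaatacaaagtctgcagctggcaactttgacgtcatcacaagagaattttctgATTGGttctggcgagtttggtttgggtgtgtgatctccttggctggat
H2-Eb1: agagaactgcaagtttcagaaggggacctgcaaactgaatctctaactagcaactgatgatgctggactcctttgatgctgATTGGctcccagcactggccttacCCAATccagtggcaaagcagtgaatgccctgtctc
H2-Aa held 1 match at 48 bases before the start and H2-Eb1 2 at 59 and 35 bases, the match at 35 being CCAAT and so not the inverted form. All 6 class II genes searched held at least 1 match of either orientation in their 250 bases, against 10133 of 27025 genes (37.5%), so the letters alone are common.

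Plasma cell and B cell genes were also on the higher side. Of 17 measured plasma cell genes 4 were higher (23.5%) and 0 lower (median 0.50). Jchain, the joining chain of secreted IgM and IgA, stood at -0.39 in wildtype and 2.89 in the array labelled knockout, from raw signals of 205.9 and 2467, a 9.69-fold difference (3.28). In the stimulated pair it stood at -2.30 and 0.18 (2.48), higher in the array labelled knockout again. Mzb1, a chaperone of antibody assembly, stood at -1.99 and 0.04 (2.03), and the surface receptor Slamf7 at -2.53 and -1.15 (1.38). Eaf2 (1.04) had probes at -0.04 and 2.12 and kept 2-fold in 3 of 8 other processing choices. Sdc1 (0.06), Xbp1 (0.29) and Prdm1 (0.18), which define plasma cells, lay within 2-fold, and Fkbp11 was at the floor in both arrays. Tnfrsf17 counted as measured through the array labelled knockout alone. The log2 summed level of the list was 6.46 in wildtype and 6.60 in the array labelled knockout. That sum is weighted to the brightest members, Cd28 (5.24 and 5.11), Edem1 (4.37 and 4.22) and Xbp1 (3.56 and 3.84). Cd28 is also on the T cell identity list.

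Of 17 measured B cell genes 3 were higher (17.6%) and 0 lower (median 0.42, from 0.23 to 0.85 under other processing choices), and the log2 summed level was 3.26 in wildtype and 3.95 in the array labelled knockout. The brightest members, Cd83 (2.19 and 3.06) and Pou2af1 (1.21 and 1.61), weighed most in that sum. Blnk, the adaptor of B cell receptor signalling, stood at -2.60 and -0.72 (1.88), the receptor kinase Blk at -3.45 and -2.43 (1.01), and Ms4a1, encoding CD20, was at the floor in wildtype and at least 1.74 higher. Blk kept 2-fold in 3 of 8 other processing choices and Ms4a1 in 5 of 7, whereas Blnk kept it in all 8. After stimulation 5 of 17 B cell genes were higher and 1 lower (median 0.37), beside 4.79% and 7.13% of all genes. Cd79b differed by 0.94 and Cd79a by -0.12, while Pax5 was at the floor in wildtype and at -4.98 in the array labelled knockout. Ebf1 and Fcrla were at the floor in both. Ms4a1, Pax5, Vpreb3 and Fcer2a counted as measured through the array labelled knockout alone, so their differences could only be positive.

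Of 21 monocyte and macrophage genes 5 were higher (23.8%) and 0 lower (median 0.42). The signalling adaptor Tyrobp stood at -1.07 and 0.71 (1.78), Ly86 differed by 1.31, the complement chain C1qc by 1.23, the scavenger receptor Marco by 1.02, and lysozyme Lyz2 by at least 1.28. Lyz2 and C1qc kept 2-fold in 5 of 7 other processing choices and Marco in 3 of 8. Lyz2, Lyz1 and Ms4a7 counted as measured through the array labelled knockout alone, and Siglec1 and Vsig4 through wildtype alone. Cd163, Mrc1 and Timd4 were at the floor in both arrays, and the log2 summed level was 5.53 in wildtype and 5.76 in the array labelled knockout. The brightest member, Ctss (5.32 and 5.47), weighed most in that sum. In the stimulated pair 0 of 18 members were higher and 11 were lower (median -1.50), beside 4.79% and 7.13% of all genes.

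Of 22 neutrophil genes 11 were at the floor in each unstimulated array, as were 8 of 14 red cell genes in wildtype and 7 in the array labelled knockout. Of the neutrophil genes 13 were measured, with 1 higher (Mpo) and 1 lower (Stfa3) and a median of -0.05. Red cell genes gave 2 higher, the globin genes Hba-a1 and Hba-a2, and 0 lower of 7 (median 0.08), with Hbb-bs and Hbb-bt at the floor in both. Mpo, S100a9 and Hba-a1 counted as measured through the array labelled knockout alone, and Camp and Ifitm6 through wildtype alone. The stimulated wildtype array differed here: 20 of 22 neutrophil genes and 10 of 13 red cell genes were lower in the stimulated array labelled knockout. Of all genes 7.13% were lower there. Of 16 natural killer and cytotoxic genes 1 was higher, Gzma (1.23), and 3 were lower: Klrc1 (-1.54), Gzmb (-1.41) and Ctsw (-1.10). Of 15 stromal and vessel genes 1 was higher, the chemokine Ccl19 (1.06), which kept 2-fold in 2 of 8 other processing choices. Of 6 measured CD8 and gamma-delta T cell genes 1 was higher, Blk (1.01), which is also on the B cell list, and 0 were lower. All 6 had a positive difference (median 0.44). Cd8a and Cd8b1 differed by 0.04 and 0.02, Sox13 by 0.39, Cd160 by 0.50 and Cd163l1 by 0.99.

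**Figure D3:**
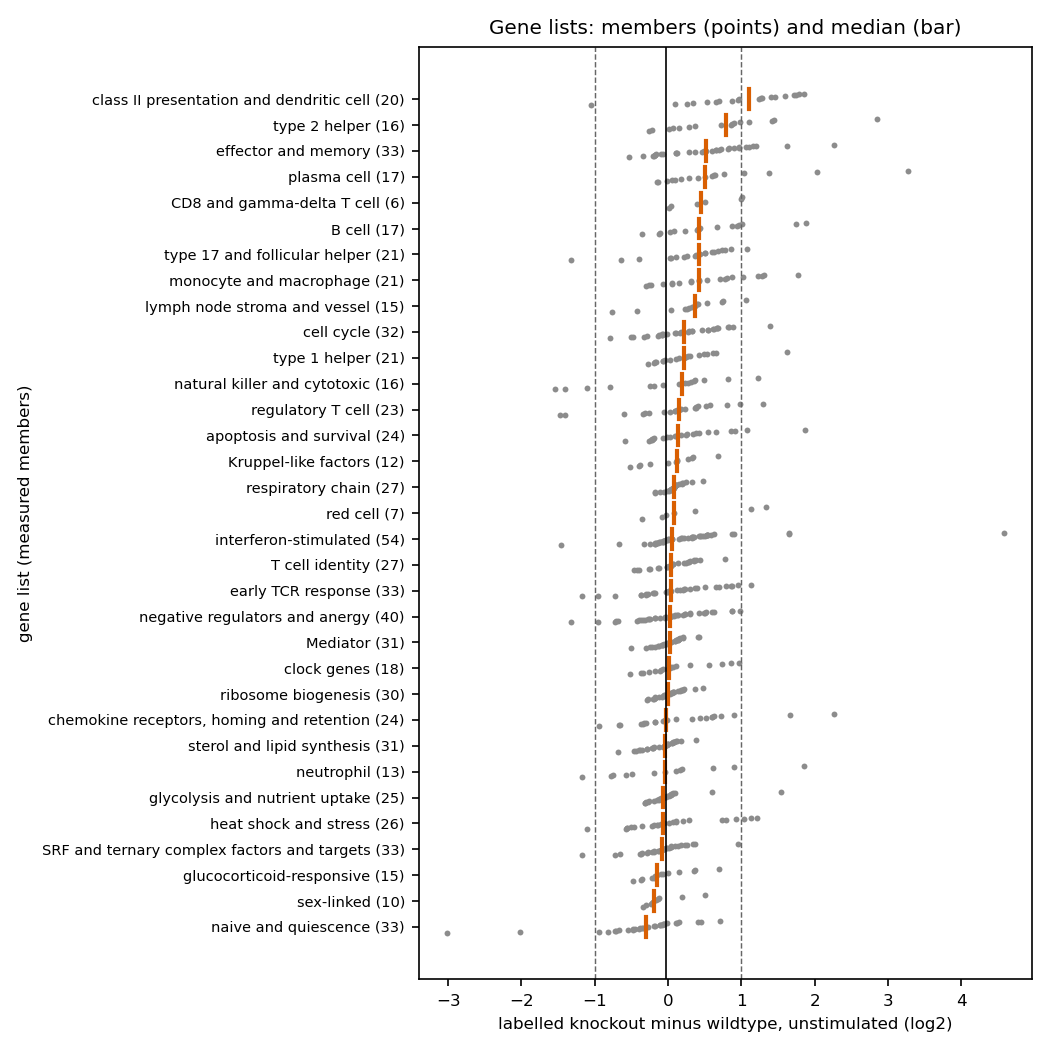
Difference (log2, labelled knockout minus wildtype, unstimulated) of every measured member of 33 gene lists, each point a gene and each bar the list median, with the all-gene median as the solid line and 2-fold as dashed lines. The class II and dendritic cell list has the highest median (1.11) and the naive and quiescence list the lowest (-0.30).

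Several other programmes had no gene past 2-fold. Of 30 ribosome biogenesis, 31 sterol and lipid synthesis, 27 respiratory chain, 18 clock and 15 glucocorticoid-responsive genes, 0 were higher and 0 lower in each list, with medians from -0.16 to 0.08. Of 32 cell cycle genes 1 was higher, the inhibitor Cdkn1a (1.39), with a median of 0.22. Of 25 glycolysis and nutrient uptake genes 1 was higher, the hexokinase Hk2, which stood at -3.84 and -2.30 (1.54). Of 26 heat shock and stress genes 3 were higher, Hsp90aa1 (1.21), Gadd45b (1.13) and Hspb1 (1.04, kept in 3 of 8 other processing choices), and 1 was lower, Hspa1a (-1.11). Of 24 apoptosis genes 2 were higher (8.33%) and 0 lower (median 0.14), among them Bmf, a death-promoting member of the Bcl-2 family, at 1.87.

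Among bright genes, the largest higher differences after Jchain were in Cd63 (1.80), a tetraspanin of granules, H2-Eb1 (1.79), the lysosomal protease Ctsh (1.77), Utp6 (1.76), Syne4 (1.74), the costimulatory ligand Icosl (1.70), the metallothionein Mt1 (1.69), the chaperone Clu (1.67) and Ccl5. Cd63 stood at 0.20 in wildtype and 2.01 in the array labelled knockout, and Clu at 1.34 and 3.01. After Dapl1, the largest lower differences were in Cd55 (-1.50), which restrains complement, Izumo1r, the protease Adam19 (-1.31), Crtam (-1.29), Phyhd1 (-1.24), Stk25 (-1.19), Egr1, Ctsw and Itsn2 (-1.10). Cd55 stood at 1.79 and 0.29, and was lower in the stimulated array labelled knockout as well (-2.37).

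Of 379 measured chemosensory receptor genes 14 were higher and 19 lower, beside 463 and 199 of 14008 genes. With these receptors left out, genes above the floor in both arrays with all probes in 1 direction were also ranked by size. The 10 largest higher differences included Jchain, Il4 and Ccr2, and the 10 largest lower ones included Dapl1 and Nrn1 (-2.98), and of these 5 all but Ccr2 differed 2-fold the same way in the stimulated pair. The top of each ranking was a gene high in 1 of the 4 arrays. Rwdd2a stood at 4.99 in wildtype and -3.86 in the array labelled knockout, a difference of -8.85, but at -4.90 and the floor in the stimulated arrays. Cmtm8 stood at -4.61 and 0.99 (5.60), with -3.96 and -3.99 in the stimulated arrays. Tomm22, a mitochondrial import receptor, stood at -1.80 and 0.80 (2.60) and was also higher in the stimulated array labelled knockout (1.09). Bdh2, a dehydrogenase, stood at -0.93 and -4.54 (-3.61) and differed by 0.50 in the stimulated pair. The remaining genes of the ranking were Gm525 (2.74), Ddx55 (2.47), Fn1 (2.45), Chst7 (2.41) and Abi3bp (2.15) on the higher side, and Ms4a19 (-2.78), Cox4i2 (-2.73), Hormad2 (-2.58), Krt34 (-2.53), Kcnk9 (-2.42) and Tifab (-2.35) on the lower. All of these but Cox4i2 fell under 2-fold with the raised floor, and Fn1 was highest in the stimulated arrays, at -0.31 and -0.89.

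Most of the largest bounds came from genes above the floor in 1 array. Tmprss15 (at least 6.00), Ceacam5 (at least 5.10), Olfr1393 (at least 4.76), Fer1l4 (at least 4.70) and Inhbc (at least 4.65) were above the floor only in the unstimulated array labelled knockout. Rgs13 (at least 55.6-fold lower), Serpinb7 (at least 21.6-fold), Vmn1r209 (at least 19.0-fold) and Gpr50 (at least 10.1-fold) were above the floor only in unstimulated wildtype. Rbp7, a retinol-binding protein, was the exception. It stood at -0.04 in unstimulated and -0.77 in stimulated wildtype and at the floor in both arrays labelled knockout, at least 31.4-fold lower without stimulation. Of the 463 higher genes 59 were at the floor in the 3 other arrays, and of the 199 lower genes 37 were.

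The stimulated pair gives the same genotype contrast in 2 other samples. Of 13407 genes measured in both pairs, 4.79% were higher and 7.13% lower there. Of 390 genes higher without stimulation and measured in the stimulated pair, 89 (22.8%) were higher again and 79 (20.3%) were 2-fold lower. The 89 were 13.9% of the genes higher in the stimulated pair. Of 159 lower genes, 46 (28.9%) were lower again and 12 (7.55%) were higher, and the 46 were 4.81% of the genes lower in the stimulated pair. The genes lower there include the neutrophil, red cell and myeloid genes that were high in stimulated wildtype, whose part in these counts was not tested.

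Among brighter genes the shares were larger. At a mean level of -3 or more, 70 of 227 higher genes (30.8%) were higher again and 44 were lower, and 23 of 68 lower genes (33.8%) were lower again and 3 were higher. Of all genes at that level measured in both pairs 4.42% were higher and 5.32% lower in the stimulated pair. At levels of 1 and above, 16 of 33 higher genes were higher again and 4 were lower, and 3 of 11 lower genes were lower again and 0 were higher.

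**Figure D4:**
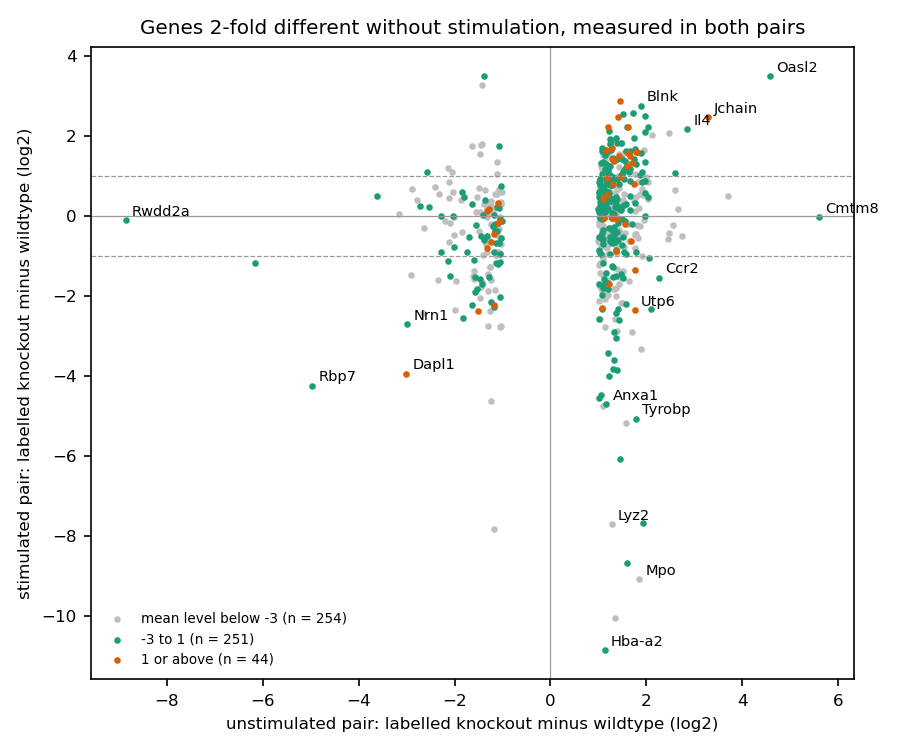
Difference in the stimulated pair against that in the unstimulated pair (both log2, labelled knockout minus wildtype) for the 549 genes 2-fold different without stimulation and measured in both, coloured by mean unstimulated level. Jchain, Il4, Oasl2 and Blnk lie high in both pairs and Dapl1, Nrn1 and Rbp7 low in both, whereas Hba-a2, Mpo, Lyz2 and Tyrobp are higher without stimulation and lower with it.

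Oasl2 and Rbp7, each at the floor in at least 1 array, differed in the same direction in both pairs. The smaller of their 2 differences or bounds was larger than that of any gene listed next. Among genes above the floor in all 4 arrays with 1 direction in both pairs, those ranked highest by the smaller difference joined several of the groups above. On the higher side these were Jchain, Il4, Mzb1, Blnk, Zcchc3 (2.13 without and 2.03 with stimulation), the ion channel Trpm6 (1.98 and 2.51), Smtn (1.97 and 2.12) and Apol7c (1.75 and 1.97). On the lower side they were Dapl1, Nrn1, Galnt9 (3.99-fold lower without stimulation and -2.36 with it), Gpm6b (-2.09 and -1.51), Rab6b (-1.97 and -1.63), Plaur (-1.59 and -1.57), Man1c1 (-1.56 and -1.90) and Cd55. Nrn1, encoding neuritin, stood at 0.74 and -2.24 without stimulation (-2.98) and at 1.27 and -1.43 with it (-2.70). Plaur, the urokinase receptor, was lower in the array labelled knockout in each pair, at -2.31 and -3.90 and at 2.13 and 0.56.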

How the data were processed

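Total RNA of lymph node CD4 T cells was hybridised to single-colour Agilent arrays, with 1 µg amplified and labelled with Cy3 per the labels' protocols. Spot intensity was read from the deposited raw table, from Agilent Feature Extraction 10.7.3.1 per the submitters' processing notes, without normalization between arrays and without detection flags. The authors also deposited normalized log2 values made in GeneSpring GX 11.5.1 (per the file headers), used here as an alternative. No genome build is named for the probes in the labels or headers.

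Of 44397 spots, 1377 were controls and were left out of the 39429 probes. Spots of a probe were averaged in log2, each array was scaled to its 75th percentile, and values were floored at -5.01, the median over arrays of their 40th percentiles. Accessions on the array were matched to a RefSeq table of GRCm38.p6, which named 26299 probes of 19896 genes. The 13130 unnamed probes were left out, and probes of a gene were averaged. A gene was measured if above the floor in at least 1 of the arrays compared, and called at 2-fold. With 1 array at the floor, a difference is only a bound, and a gene with some probes at the floor is given without that word. Promoter sequences are RefSeq's. Python 3.11.15 with pandas 2.3.3 and numpy 2.4.6 was used, and the calls were tested on simulated data. Only brighter genes were changed in the simulation, and its noise was the same at every level. It therefore cannot speak for calls of dim genes or for the spread between mice.

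With 1 array per group no test was run within the comparison, and so few arrays limit the precision of every value. A test of genotype pooled over stimulation was not run. Named genes were Med23 and 5 given markers, and list members past 2-fold or among the 4 largest of a list. They included the 10 largest differences each way with probes above the floor and in 1 direction, chemosensory receptor genes left out. Named genes also took the 5 largest bounds each way, and the 10 largest each way among genes at levels of 1 or more. Also taken were the 10 neighbours on each side of Med23, and 8 genes each way from the ranking over both pairs. That ranking used the smaller of the 2 differences, both in the same direction. Family members, near misses and defining markers of a list named beside these were chosen after their values were seen. Some genes that the rule takes are not reported here. The members and the 33 gene lists were chosen with earlier results of these data known. The alternatives were median scaling, quantile normalization, the authors' values, lower and higher floors, a pseudocount, the brightest probe per gene, the median of spots, only brighter genes, and, added after seeing the data, only genes whose probes share 1 direction.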

Additional observations from a re-analysis of the deposited data

Results flagged for a closer look

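Several named genes differed 2-fold one way without stimulation and 2-fold the other way in the stimulated pair. Each direction comes from 1 array a side, and the difference between the pairs was not tested. Genes higher in the unstimulated array labelled knockout and lower in the stimulated one included Hba-a2 (1.13 without and -10.87 with stimulation), Tyrobp (1.78 and -5.07), Anxa1 (1.16 and -4.71), Utp6 (1.76 and -2.35), Hsp90aa1 (1.21 and -1.69), Plac8 (1.19 and -1.67), Ly86 (1.31 and -1.53) and Ctsh (1.77 and -1.36). The same was seen in genes with a bound in at least 1 pair: Hba-a1 (at least 1.34 and at most -10.05), Mpo (at least 1.85 and -9.08), Lyz2 (at least 1.28 and at most -7.71), Il24 (1.44 and at most -1.70) and Ccr2 (2.27 and at most -1.54). Hspa1a (-1.11 and 1.35) and Hormad2 (-2.58 and 1.12) went from lower to higher. The stimulated wildtype array also held the higher neutrophil, red cell and myeloid gene levels given above, and their part in these differences was not tested.

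Probes without a gene name were left out of every comparison. Of 6855 such probes above the floor in an unstimulated array, 324 were 2-fold higher in the array labelled knockout (4.73%) and 186 were lower (2.71%).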

How the results depend on the processing

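The counts of higher and lower genes depended on how dim probes were treated. A floor taken from the 20th percentile gave 779 and 531, and one from the 60th gave 147 and 54. The counts were 207 and 127 with a pseudocount of 16 signal units in place of the floor, 204 and 72 with the authors' normalized values, and 233 and 71 for genes above log2 -3 only. Median scaling gave 399 and 227, quantile normalization 407 and 213, the brightest probe 538 and 234, the median of spots 464 and 199, and, chosen after seeing the data, genes with all probes in 1 direction 442 and 190. Higher genes were 59.5% of calls with the lower floor and 62.0% to 73.9% under the other scaling, floor and probe choices. The median of all genes was -0.16 with the pseudocount and -0.10 with median scaling. The median of the type 2 helper list was 0.43 with the authors' values, 0.42 with the lower floor and 0.18 with the pseudocount. That of the B cell list was 0.85 with the authors' values and 0.23 with the pseudocount, and that of the class II and dendritic cell list 1.30 and 0.66. Of 110 named genes past 2-fold, 64 stayed past it in all of the 8 alternatives that gave them a value and 46 did not in at least 1. Only Eaf2 changed direction, to -0.0408 with the authors' values, -0.0196 with the higher floor and -0.0391 with the brightest probe. The cause was not tested, apart from the fewer genes that a filter leaves.

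No paired analysis was possible because the labels carry no replicate numbers by which to pair arrays and the results come from no test. A fit of genotype over both pairs, matched by stimulation, was not run. With 1 array per group no replicate was left out. Signal over background limits the dim genes, whose spot noise was largest.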
